A study of Mus musculus with 48 samples.

Results

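The replication-dependent histone genes encode the bulk of the core histones H2A, H2B, H3 and H4 and of the linker histone H1. They were followed here at the level of poly(A)-selected RNA and of ribosome-protected footprints in Ba/F3 cells, an interleukin-3-dependent mouse pro-B cell line. A gene was a member when its symbol in the count table was H1f1 to H1f6, or began with H2ac, H2bc, H3c or H4c and a number, or had the older Hist form. This gave 66 of the 55487 genes in the table: 6 H1, 19 H2A, 17 H2B, 12 H3 and 12 H4 genes, of which 2 (H2ac14 and H2ac5-ps) are annotated pseudogenes. In GRCm38.p6, 56 of them lie on chromosome 13 between 21715711 and 23934913, and 10 on chromosome 3 between 96219885 and 96270192.

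Core histones form the octamer around which DNA is wrapped, and H1 binds the linker DNA between nucleosomes. The replication-dependent genes are transcribed in S phase, when new DNA needs new nucleosomes. Their messages normally end in a conserved stem-loop that binds the protein SLBP, not in a poly(A) tail, and they are degraded when DNA synthesis stops. Selection on poly(A) therefore captures little of this RNA, whereas footprinting does not depend on the tail. Some members, such as H2bc21 and H1f2, are known from other cells to be made also as polyadenylated messages.

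The study compared clones of 1 cell line that were made with CRISPR-Cas9 and carry ribosomal protein defects, and its title names mutations of Rps15 found in chronic lymphocytic leukaemia. Of the 8 genotypes, 1 was WT and 3 had lost a single allele (Rpl5+/-, Rpl11+/- and Rpl22+/-). Rpl22-/- had lost both alleles of Rpl22. The others were point mutants on both alleles: Rps15 H137Y, Rps15 P131S and, in a protein of the large subunit, Rpl10 R98S. Each genotype had 3 clones, and every clone gave 1 RNA and 1 footprint library from a single divided lysate, 48 libraries in all. Culture medium held 10% serum with interleukin-3 at 1 ng/ml, and cycloheximide (0.1 mg/ml, 1 min) was given to all clones before harvest. The p-values below measure the spread between these clones. Every mutant was compared with the same 3 WT clones, so the comparisons with WT share their controls.

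The RNA libraries held 13029073 to 38258559 counts and the footprint libraries 15598994 to 72044439. Ptprc RNA (the pan-leukocyte antigen CD45) was at 167 to 302 CPM (counts relative to library size) and Il3ra RNA (an interleukin-3 receptor chain) at 25.6 to 35.1 CPM, while the B lineage genes Pax5, Ebf1 and Rag1 were at or below 0.119 CPM in every library and Il7r at 0. Rpl22 footprints were at 2349 to 2785 CPM in WT, 1429 to 1596 CPM in Rpl22+/-, and 274, 1544 and 317 CPM in the libraries labelled Rpl22-/-. The 1544 CPM belong to clone 30, which lay among the Rpl22+/- clones. Leaving clone 30 out changed no count of histone genes that passed a test in that genotype. Rpl5 RNA was at 1534 to 1588 CPM in Rpl5+/- against 2282 to 2337 CPM in WT, and Rpl11 RNA at 1008 to 1149 CPM in Rpl11+/- against 1665 to 1686 CPM. Rps15 RNA was at 1432 to 1454 CPM in WT. It was at 906.5, 1825 and 1935 CPM in the Rps15 P131S clones and at 1829, 817 and 874 CPM in the Rps15 H137Y clones. In each of these genotypes the low clones lay below every WT clone and the others above. The low clones also had fewer Rps15 footprints than any WT clone. The cause of this split, and its part in the histone values, was not tested. Such counts do not test the labels of the point mutants.

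Many members are near-identical in their coding sequence, and how the authors' counting divided reads that fit several of them is not given in the sources used here. Among values above 0, 70.5% of the members' RNA values and 94.2% of their footprint values were not whole numbers within 0.01 counts, against 11.01% and 33.7% over all genes. Levels of single members with close copies are therefore uncertain. The sums over a class do not depend on how reads were divided inside it. They can depend on reads shared with histone genes whose symbols do not match the rule and which were not counted as members. The annotated models of H2bc4, H2bc6, H2bc22 and H2bc21 span 8282, 37455, 14079 and 2667 bases, longer than a single histone coding exon.

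To show what these genes carry upstream, promoters from RefSeq (GRCm38.p6) were matched by symbol for 58 of the 66 members, as windows from 250 bases before to 50 bases after the start. A CCAAT box (CCAAT, either strand) was found in all 6 H1, 17 H2A, 14 H2B and 10 H3 promoters but in 3 of 11 H4 promoters, and in 37.4% of all 32851 promoters of the table. The TATA box (TATAAA, either strand) was found in 34 of 58 members (58.6%) against 13.6% of all promoters. The octamer of H2B promoters (ATTTGCAT, either strand) was found in 6 of 17 H2A and 6 of 14 H2B promoters and in no other member, against 1.74% of all promoters. Several H2A and H2B genes are divergent neighbours, so their windows can cover the same DNA. A match describes letters only.

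H2bc21, described at length below, had no matched promoter. Of other members named below, 5 promoters are printed, with matches to these 3 motifs on either strand in capitals. They give the 150 bases before the start, 5′ to 3′ on the gene's strand. They lie at chr13:23738657-23738806 (+) for H1f2, chr13:23554882-23555031 (+) for H1f3, chr13:23571250-23571399 (+) for H2bc8, chr13:22041363-22041512 (−) for H4c9 and chr13:21832198-21832347 (−) for H4c18.
H1f2: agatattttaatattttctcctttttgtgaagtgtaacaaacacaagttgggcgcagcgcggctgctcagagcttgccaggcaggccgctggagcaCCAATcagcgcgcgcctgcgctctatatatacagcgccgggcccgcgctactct
H1f3: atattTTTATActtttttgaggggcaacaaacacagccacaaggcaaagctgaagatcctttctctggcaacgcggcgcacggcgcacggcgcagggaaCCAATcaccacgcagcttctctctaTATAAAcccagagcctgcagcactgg
H2bc8: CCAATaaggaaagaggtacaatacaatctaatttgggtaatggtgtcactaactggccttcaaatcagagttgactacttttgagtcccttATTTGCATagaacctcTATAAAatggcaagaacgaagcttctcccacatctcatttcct
H4c9: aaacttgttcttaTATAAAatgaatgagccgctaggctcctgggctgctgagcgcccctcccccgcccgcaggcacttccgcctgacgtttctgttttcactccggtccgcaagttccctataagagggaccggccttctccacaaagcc
H4c18: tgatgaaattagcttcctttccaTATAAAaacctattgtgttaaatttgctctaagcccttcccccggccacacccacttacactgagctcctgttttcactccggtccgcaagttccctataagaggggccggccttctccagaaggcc

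The 2 H1 promoters carry CCAAT 54 and 51 bases before the start, and H2bc8 carries the octamer 59 bases and TATAAA 43 bases before it. H4c9 and H4c18 share a run of 38 bases near the start (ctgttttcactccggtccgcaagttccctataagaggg). That run occurs in 3 of the 11 H4 promoters (H4c9, H4c17 and H4c18) and in the same 3 of all 32851.

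In WT cells histone footprints were abundant and histone RNA was almost absent from the poly(A)-selected libraries. The CPM of each library are those after TMM scaling. The 66 genes together held 37530, 26640 and 32660 footprint CPM in the 3 WT clones, 3.23% of all footprints on average, but 90.2, 87.5 and 84.0 RNA CPM, 0.00872% of the RNA. The summed ratio of footprints to RNA was 416, 305 and 389, a log2 value of 8.52 ± 0.24 (SD, n = 3). Because the RNA was selected on poly(A) and the footprints were not, this ratio measures both the missing tail and ribosome occupancy, and it is not a translation efficiency.

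Over the 11810 genes that passed the count filter in both assays and had at least 10 counts over the WT clones in each, the ratio had a median of 0.811 and ran from 0.121 at the 5th to 2.96 at the 95th percentile. The 49 members among them had a median of 565, and 48 lay above the 95th percentile. Members made up 32 of the 50 highest ratios of all genes, and 44 of the 50 highest among 10460 protein-coding genes. H1f1, a linker histone (chr13:23763668-23764412), had the highest ratio of all, 8360, followed among members by H4c1 with 5495 and H3c1 with 4290.

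The members at the other end were few. H2bc21 had a ratio of 0.368, the only one under the median of all genes. The annotated pseudogene H2ac5-ps followed with 6.71, and H1f2, H2bc23 and H4c9 had ratios of 14.4, 16.2 and 21.8. H1f2 and H2bc21 together held more than the rest of the family in RNA, with 29.6 and 16.6 CPM against 41.0 CPM for the other 64, and the summed ratio without these 2 genes, chosen after their values were seen, was 770. The replication-independent histones had ratios near those of other genes: 0.446 for H3f3a, 0.494 for H3f3b, 1.51 for H2az1, 0.357 for H1f0 and 2.50 for H2ax. Their messages carry a poly(A) tail, although that of H2ax is known to be made in both forms, with and without the tail.

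**Figure D1:**
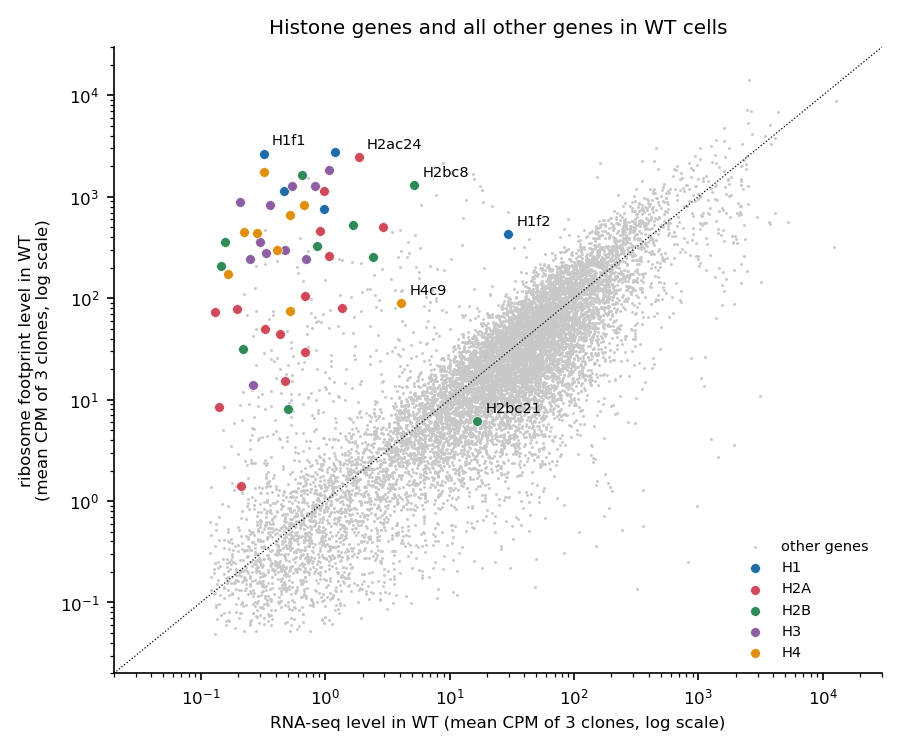
Mean RNA CPM (x, log axis) against mean footprint CPM (y, log axis) over the 3 WT clones, with each gene as a point, members coloured by histone class, other genes in grey and a dotted line where both are equal. Members lie far above the line, with a median ratio of 565 against 0.811 over all genes, and H2bc21 is the only one below the median of all genes.

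Within the family, footprint levels were compared per kb of gene length for the 58 genes with 1 transcript and fewer than 1000 bases. Medians were 1202 CPM per kb for H1, 157 for H2A, 634 for H2B, 660 for H3 and 752 for H4, and H2ac24 was highest at 5467. The members with the most footprints in each class were H1f3, H1f1 and H1f5 (2771, 2673 and 1134 CPM), H2ac24 and H2ac19 (2471 and 1142 CPM), H2bc12, H2bc8 and H2bc18 (1636, 1301 and 943 CPM), H3c3, H3c6 and H3c8 (1835, 1281 and 1268 CPM), and H4c1, H4c18 and H4c4 (1764, 830 and 661 CPM). The members with the most RNA were H1f2, H1f3 and H1f4 (29.6, 1.198 and 0.974 CPM), H2ac8, H2ac24 and H2ac11 (2.92, 1.86 and 1.36 CPM), H2bc21, H2bc8 and H2bc4 (16.6, 5.17 and 2.43 CPM) and H4c9 (4.09 CPM), and the best represented H3 gene in RNA was at no more than 1.08 CPM.

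At this depth single members rest on few RNA counts. H1f1 had 27 RNA counts over the 3 WT libraries, H4c18 56 and H1f3 100, against 344 for H4c9, 1393 for H2bc21 and 2477 for H1f2. Of the 66 members, 55 passed the count filter for RNA, 63 for footprints and 65 for the ratio, but 22 reached the filter's level for RNA in all 3 WT clones. The other 33 passed through some of the libraries only, for most of them those in which they were high, so counts over the 55 are given as a description, with the 22 beside them. Among members with RNA or ratio tests below, H1f1, H2ac22, H2bc3, H2bc7, H2bc11, H3c7, H3c11 and H4c2 did not reach that level in WT RNA, so their RNA and ratio tests had to lean towards a difference.

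Histone RNA was higher in the clones with either Rps15 mutation, and the size differed between classes. The RNA sum over all 66 genes was 233, 180 and 238 CPM in Rps15 H137Y (2.49 times the WT mean) and 185, 190 and 134 CPM in Rps15 P131S (1.95 times), and all 6 clones lay above the 3 WT clones. H4 RNA was 25.4, 24.8 and 32.8 CPM in P131S and 25.6, 20.7 and 30.3 CPM in H137Y against 7.27, 7.64 and 7.27 CPM in WT. The H3 sums were 2.67 times WT in P131S and 3.09 times in H137Y, and the H2A sums 2.39 and 2.55 times. H2B RNA reached 92.9, 63.1 and 96.4 CPM in H137Y against 28.1 to 30.3 CPM in WT, but in P131S clone 20 had 29.9 CPM and overlapped WT. H1 RNA was 64.7, 50.6 and 57.8 CPM in H137Y against 29.8 to 35.7 CPM in WT. In P131S it was 66.75, 72.4 and 28.0 CPM, and the lowest value, of clone 20, lay below every WT clone.

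The footprint sums over all 66 genes overlapped WT in both mutants. They were 38690, 36050 and 30500 CPM in H137Y (1.09 times WT) and 38530, 34050 and 48480 CPM in P131S (1.25 times). By class, H1 footprints in P131S lay above every WT clone (9112 to 14180 CPM against 7020 to 8853 CPM). So did H3 footprints in H137Y (9175 to 11220 CPM against 5479 to 9094 CPM), while the other class sums of both mutants overlapped WT. The summed ratio had a geometric mean of 367 in WT and of 162 in H137Y (166, 200 and 128), where each clone was below every WT clone. In P131S it was 238 (208, 180 and 362), with clone 20 inside the WT range. For H4 the ratio was 685 in WT, 208 in P131S and 187 in H137Y, and no clone of either mutant reached a WT clone. No test was made on these sums.

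**Figure D2:**
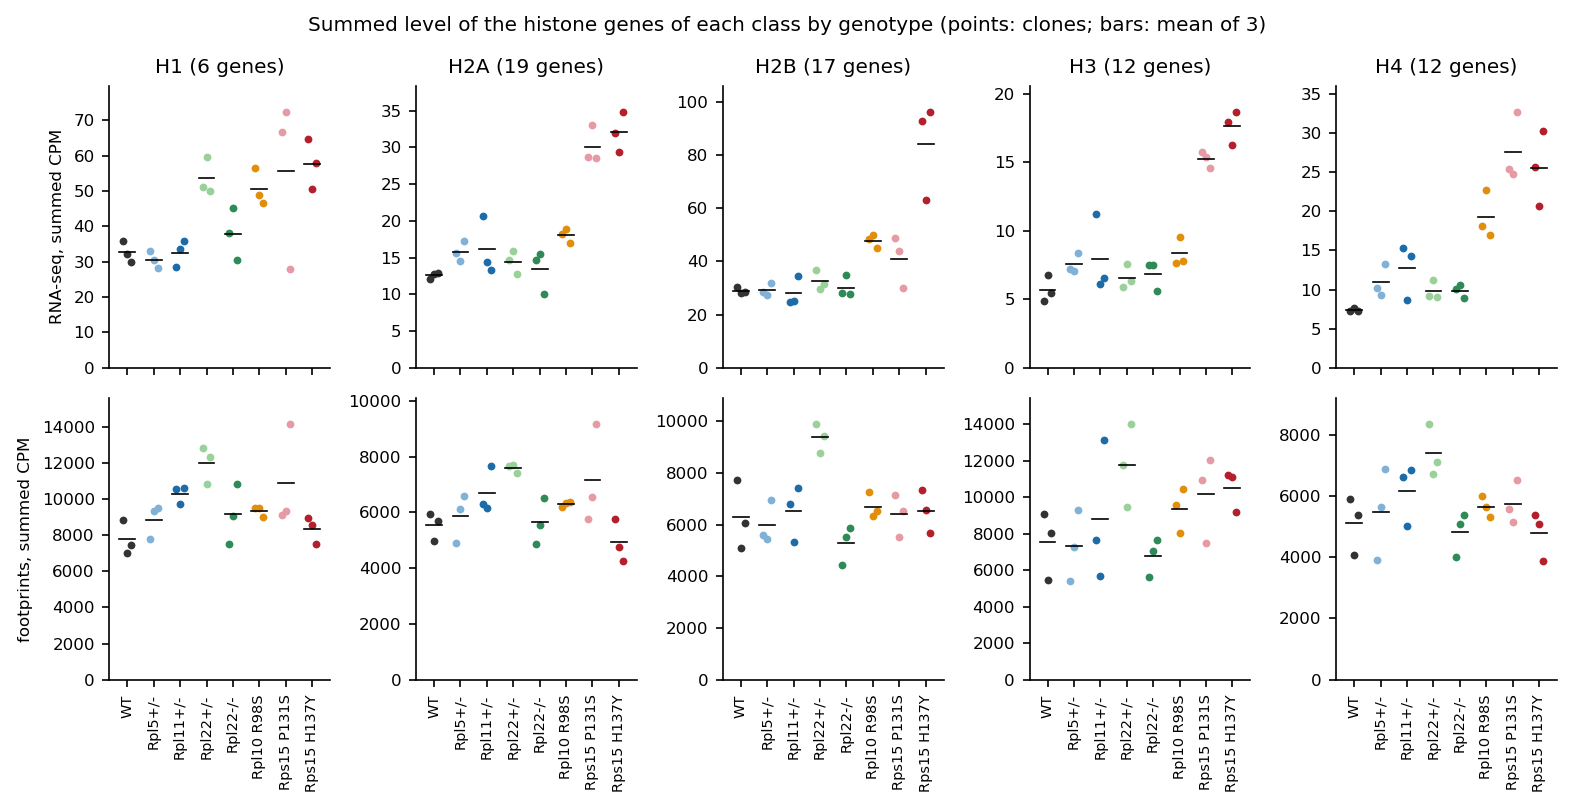
Summed CPM (y, from 0) of the H1, H2A, H2B, H3 and H4 genes in RNA (upper row) and footprints (lower row) for the 8 genotypes, with a point for each of 3 clones and a bar for their mean. The H4 RNA of all 7 mutants lies above all WT clones, with fold values from 1.33 in Rpl22+/- and Rpl22-/- to 3.74 in Rps15 P131S. In the footprint row all Rpl22+/- clones lie above WT in every class.

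Gene by gene, 34 of the 55 members tested passed edgeR's quasi-likelihood test at a Benjamini-Hochberg adjusted p under 0.05 with higher RNA in P131S, and none with lower RNA. Over all 12814 genes tested, 23.7% were higher and 23.4% lower in that comparison. The members' median log2 change was 1.22 and that of all genes was −0.01. Of the 22 members at the filter's level in WT, 14 passed. A fit on only these 2 genotypes, in place of all 8, gave 22 members.

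In H137Y, 41 of 55 members were higher and none lower, against 21% of all genes higher and 20% lower. The median log2 change was 1.64, and 18 of the 22 members at the filter's level in WT passed. By class, 4 of 5 H1, 9 of 15 H2A, 10 of 13 H2B, 10 of 12 H3 and 8 of 10 H4 genes rose in H137Y. The same numbers in P131S were 4 of 5, 8 of 15, 7 of 13, 9 of 12 and 6 of 10. Over the 22 members at the filter's level in WT, they were 3 of 3 H1, 5 of 7 H2A, 5 of 6 H2B, 3 of 3 H3 and 2 of 3 H4 genes in H137Y, and 3, 5, 2, 2 and 2 in P131S.

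Some markers of other cell types were also higher in these clones, and some of those in other genotypes too. Of 5 genes tested from the pro-B and interleukin-3 list, Csf2rb and Csf2rb2 rose in both Rps15 mutants. Cd79b fell in P131S (23.4% of all genes lower), and Ptprc fell in H137Y (20%) and R98S (6.03%). Of 4 myeloid markers tested, all rose in H137Y and 2 (Itgam and Lyz2) in P131S, where 21% and 23.7% of all genes rose. The sum of the 5 listed was 1.77 to 7.99 CPM in WT, 6.89 to 58.9 CPM in P131S and 24.7 to 90.7 CPM in H137Y. Lyz2 RNA was 1.13, 5.61 and 1.96 CPM in WT, 20.4, 50.4 and 5.48 CPM in P131S and 36.9, 68.0 and 17.4 CPM in H137Y. The 3 mast cell markers summed to 15.9 to 46.3 CPM in WT, 98.7 to 278 CPM in P131S and 27.3 to 122 CPM in H137Y, and Mcpt8 rose in both. The 3 erythroid markers summed to 18.5 to 43.5 CPM in WT, 15.7 to 39.7 CPM in P131S and 46.0 to 274 CPM in H137Y, where Hba-a1 and Hbb-bt rose. Col1a1 rose in both, with the 2 fibroblast markers summing to at most 0.213 CPM in WT, 6.09 CPM in P131S and 8.71 CPM in H137Y. In these groups the T cell and epithelial lists were at or below 0.348 CPM. Col1a1 rose in Rpl11+/- as well, with a mean of 5.76 CPM against 2.75 CPM in P131S and 3.36 CPM in H137Y. The mast cell sum was 50.9 to 104 CPM in Rpl5+/-, 50.8 to 79.7 CPM in Rpl11+/- and 68.4 to 89.1 CPM in Rpl22+/-, without a passed test. It overlapped WT in Rpl22-/- and R98S. Which cells made these marker RNAs, and their part in the histone RNA values, was not tested.

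H4c9 (chr13:22040960-22041362, minus strand), an H4 gene whose RNA was the best represented of its class, had the lowest adjusted p of the family in P131S. Its RNA was 3.88, 4.44 and 3.96 CPM in WT, 14.6, 16.0 and 22.1 CPM in P131S and 13.5, 8.69 and 15.3 CPM in H137Y. Every mutant clone lay above every WT clone. The log2 change was 2.10 (SE 0.23, adjusted p = 6.86e-07, edgeR) in P131S and 1.61 (SE 0.23, adjusted p = 1.57e-05) in H137Y. Its footprints were 132, 52.5 and 83.9 CPM in WT, 116, 51.7 and 41.5 CPM in P131S and 110, 100.5 and 77.6 CPM in H137Y, and the 3 groups overlapped. The ratio of H4c9 was lower in P131S by a log2 change of −2.48 (SE 0.50, adjusted p = 0.00254, edgeR), which did not pass when only these 2 genotypes were fitted or WT clone 3 was left out.

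H4c18 (chr13:21831792-21832197), which shares the promoter run with H4c9, had RNA of 0.980, 0.497 and 0.549 CPM in WT, 2.76, 1.90 and 2.66 CPM in P131S and 3.02, 3.40 and 4.08 CPM in H137Y. The mutant clones did not overlap WT, and the log2 changes were 1.86 (SE 0.35, adjusted p = 0.000182, edgeR) and 2.37 (SE 0.35, adjusted p = 1.88e-05). Its footprints were 937, 672 and 881 CPM in WT, 807, 811 and 1001 CPM in P131S and 684, 690 and 533 CPM in H137Y, without a passed test. The ratio fell by 1.82 and 2.78 on the log2 scale (adjusted p = 0.00146 and 2.05e-06, edgeR). H4c2 (chr13:23756937-23757386) was alike in H137Y: its RNA was 0.265, 0.782 and 0.511 CPM in WT and 2.05, 3.13 and 3.29 CPM in the mutant, and its ratio changed by −2.94 (adjusted p = 9.56e-05).

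Among H3 genes, H3c7 (chr13:23544052-23544954) and H3c11 (chr13:21782915-21783397) had the lowest p, on 28 and 21 RNA counts over the 3 WT libraries and without reaching the filter's level there. H3c7 RNA was 0.339, 0.249 and 0.412 CPM in WT, 1.62, 1.295 and 1.80 CPM in P131S and 1.17, 0.852 and 0.955 CPM in H137Y, with log2 changes of 2.23 (SE 0.34, adjusted p = 2.48e-05, edgeR) and 1.56 (SE 0.34, adjusted p = 0.00107). H3c11 RNA was 0.187, 0.232 and 0.329 CPM in WT and 0.977, 1.49 and 1.67 CPM in H137Y, a log2 change of 2.37 (SE 0.37, adjusted p = 3.6e-05). Neither gene's mutant clones overlapped WT. The footprints of H3c7 did not differ by the test, at 320, 248 and 268 CPM in WT and 232, 213 and 296 CPM in P131S, and its ratio changed by −2.43 in P131S (adjusted p = 4.97e-05) and −1.57 in H137Y (adjusted p = 0.0105).

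Among H2A genes, H2ac8 (chr13:23570663-23571220), which carries the most RNA of its class, was at 3.25, 2.62 and 2.88 CPM in WT, 6.85, 8.28 and 8.83 CPM in P131S and 5.84, 5.77 and 5.84 CPM in H137Y. All mutant clones were above WT, with log2 changes of 1.45 (SE 0.23, adjusted p = 3.74e-05, edgeR) and 1.00 (SE 0.23, adjusted p = 0.00165). H2ac22 (chr13:21786774-21787248) RNA rose from 0.502, 0.336 and 0.456 CPM in WT to 1.94, 2.20 and 3.97 CPM in H137Y, a log2 change of 2.68 (SE 0.42, adjusted p = 3.87e-05). H2ac24, the member with the most footprints per kb, changed less in RNA, with log2 changes of 0.75 in P131S and 0.77 in H137Y (adjusted p = 0.0285 and 0.0274).

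The 2 genes with the most RNA in WT are given next. H2bc21 (chr3:96221072-96223738), an H2B gene, had RNA of 17.1, 16.7 and 16.1 CPM in WT and 20.03, 15.9 and 13.98 CPM in P131S, a log2 change of 0.00. In H137Y it was at 56.4, 44.4 and 55.0 CPM, far above WT, by 1.64 on the log2 scale (SE 0.14), with the lowest p of the family there (adjusted p = 1.78e-08 by edgeR). Its footprints rose too: 6.19, 5.59 and 6.59 CPM in WT against 21.3, 13.2 and 11.8 CPM in H137Y, a log2 change of 1.33 (SE 0.28, adjusted p = 0.00361). In P131S its footprints were 10.48, 9.14 and 8.57 CPM, above the WT clones, with an adjusted p of 0.136 (edgeR).

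H1f2 (chr13:23738807-23739531), a linker histone, had RNA of 32.8, 28.95 and 27.2 CPM in WT, 54.2, 43.0 and 47.0 CPM in H137Y and 59.6, 65.6 and 21.8 CPM in P131S. The low value of P131S belongs to clone 20 and lay below WT, while the other clones lay above. The log2 changes were 0.70 in H137Y (adjusted p = 0.0395, edgeR) and 0.72 in P131S (adjusted p = 0.0298). Its footprints were 501, 403 and 380 CPM in WT and 901, 814 and 820 CPM in P131S, clone 20 included, a log2 change of 0.98 (SE 0.19, adjusted p = 0.00113). In H137Y they were 771, 698 and 381 CPM and overlapped WT (log2 change 0.53, adjusted p = 0.0704).

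In footprints, 9 of 63 members were higher and 5 lower in P131S, where 8.42% of all 16217 genes were higher and 8.28% lower. Leaving out P131S clone 20 gave 8 members in all, and leaving out WT clone 1 gave 9. In H137Y 4 members were higher and 1 lower, against 5.22% and 6.44% of all genes. Called in either direction were 22.2% of the members in P131S and 7.94% in H137Y, not far from these backgrounds. Leaving out H137Y clone 16 or 6, or any 1 WT clone, gave 3 members in place of 5.

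The members whose footprints rose in P131S were H1f1, H1f2, H2ac4, H2ac6, H2ac11, H2ac20, H3c1, H3c2 and H4c14. H1f1 footprints were 3039, 2421 and 2557 CPM in WT and 3942, 4448 and 8270 CPM in P131S, with clone 20 highest (1.06 on the log2 scale, SE 0.21, adjusted p = 0.0016 by edgeR). H2ac11 (chr13:22042478-22042949) had 68.1, 92.1 and 78.8 CPM in WT and 173, 223 and 302 CPM in P131S (1.55, SE 0.31, adjusted p = 0.00192), and H2ac20 (chr3:96220413-96220880) 205, 196 and 163 CPM against 376, 390 and 643 CPM (1.32, SE 0.26, adjusted p = 0.00169). In all 3 genes the P131S clones lay above the WT clones.

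Footprints fell in P131S for H1f3, H2ac21, H2bc3, H2bc7 and H2bc12, of which the H1 and H2B genes had higher RNA in the same clones. H2bc3 (chr13:23746734-23747223) footprints were 266, 178 and 179 CPM in WT and 155, 118 and 125 CPM in P131S, a change of −0.65 on the log2 scale by edgeR (SE 0.14, adjusted p = 0.00383) that the fit on only these 2 genotypes did not pass. Its RNA was 0.198, 0.0355 and 0.206 CPM in WT and 0.668, 0.655 and 0.602 CPM in P131S. H2bc7 (chr13:23573760-23574207) footprints were 412, 294 and 423 CPM against 249, 215 and 232 CPM (−0.70, adjusted p = 0.00435). H2bc12 footprints were 2035, 1315 and 1559 CPM against 1208, 956 and 1141 CPM (−0.57, adjusted p = 0.0358). In each of the 3 genes all P131S clones lay below all WT clones.

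H1f3 (chr13:23555032-23555807), the linker histone with the most footprints in WT, moved in opposite directions at the 2 levels in both mutants. Its RNA was 1.32, 1.35 and 0.926 CPM in WT, 2.31, 2.06 and 1.64 CPM in P131S and 5.34, 3.02 and 4.05 CPM in H137Y, with log2 changes of 0.74 (adjusted p = 0.0482, edgeR) and 1.79 (adjusted p = 8.06e-05). Its footprints were 3040, 2597 and 2677 CPM in WT, 1876, 2017 and 2415 CPM in P131S and 1992, 2119 and 1494 CPM in H137Y, with log2 changes of −0.40 (adjusted p = 0.0463) and −0.57 (adjusted p = 0.0087). All mutant clones lay above WT in RNA and below WT in footprints. The H137Y footprint call was lost without WT clone 3 or H137Y clone 2.

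In H137Y the footprints of H2bc13, H2bc21, H3c1 and H3c2 rose. H3c2 (chr13:23752345-23752840) was at 384, 307 and 392 CPM in WT and 615, 685 and 532 CPM in H137Y (0.76 on the log2 scale, SE 0.18, adjusted p = 0.00899 by edgeR), lost without WT clone 2. H3c1 (chr13:23761885-23762386) was at 1038, 690 and 924 CPM in WT and 2173, 2100 and 1563 CPM in H137Y (1.14, adjusted p = 0.0417), a call lost in 7 of 10 alternative settings. H2bc13 was at 6.63 CPM on average against 2.53 CPM (1.39, adjusted p = 0.0287), lost in 4 of 10 settings. The mutant clones of all 3 genes lay above WT.

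The ratio of footprints to RNA fell for 11 of 65 members in P131S and for 15 in H137Y, and it rose for none in either. Over all 16568 genes tested, 2.26% were lower and 0.881% higher in P131S, and 2.15% lower and 0.61% higher in H137Y. Leaving out P131S clone 24, WT clone 1 or WT clone 3 gave 6 members in P131S, and leaving out WT clone 3 gave 9 in H137Y. Of the 22 members at the filter's level for RNA in WT, 4 passed in each. DESeq2 gave 17 and 27. The median log2 change of all 65 members tested was −1.12 in P131S and −1.48 in H137Y, against −0.01 and −0.02 over all genes. Most of these members did not reach the filter's level for RNA in WT, and no median of the ratio was taken over the 22.

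Over all members tested, the lower ratios were those of 2 H1, 1 H2A, 4 H2B, 1 H3 and 3 H4 genes in P131S, and 2, 2, 5, 2 and 4 in H137Y. Of these, 4 in each mutant were among the 22 members at the filter's level for RNA in WT. The split over classes therefore rests mainly on members below that level in at least 1 WT clone. H2bc3 changed by −2.83 (SE 0.39, adjusted p = 2.61e-05, edgeR) in P131S and −2.87 (SE 0.36, adjusted p = 4.63e-06) in H137Y, and H2bc7 by −2.72 and −2.79 (adjusted p = 0.00155 and 0.000759). Both rest on a WT RNA value near the floor, 12 and 8 counts over the 3 WT libraries, and entered through the mutants. H1f3 changed by −2.38 (SE 0.28, adjusted p = 1.33e-06) in H137Y, the lowest p of the family, and by −1.16 (adjusted p = 0.0187) in P131S. As the footprints of these genes changed by at most 0.70 on the log2 scale, the larger part of each ratio change lay in the poly(A)-selected RNA.

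Set side by side, the RNA change exceeded the footprint change for 53 of the 53 members tested at both levels in H137Y, 46 in P131S and 43 in R98S, but also for 42 in Rpl5+/-, 35 in Rpl11+/-, 34 in Rpl22-/- and 18 in Rpl22+/-. Over the 22 members at the filter's level in WT it was 22 in H137Y, 17 in R98S, 16 in P131S and 14 in Rpl5+/-. It was 11 of the 22 in Rpl11+/-, 7 in Rpl22-/- and 4 in Rpl22+/-. Over these 22 the median log2 change was 1.4 in RNA and 0.12 in footprints in H137Y, 0.95 and 0.51 in P131S, 0.57 and 0.12 in R98S, and 0.11 and 0.01 in Rpl5+/-. These medians were 0.21 and 0.25 in Rpl11+/-, −0.03 and 0.08 in Rpl22-/-, and 0.21 and 0.6 in Rpl22+/-. Of the 34 members with higher RNA in P131S, 6 had higher and 4 lower footprints and 24 passed neither way. Of the 41 in H137Y, the numbers were 3, 1 and 37.

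**Figure D3:**
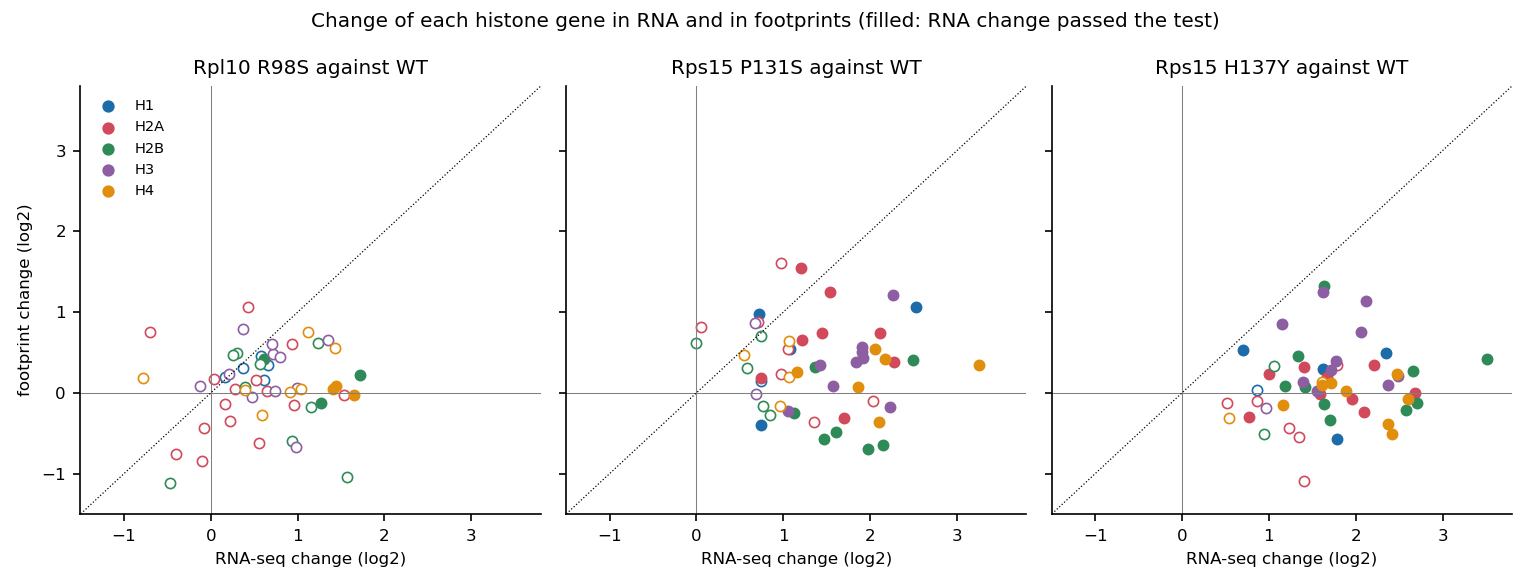
Log2 change of RNA (x) against log2 change of footprints (y) from WT for the 53 members tested at both levels, in Rpl10 R98S, Rps15 P131S and Rps15 H137Y, with filled points where the RNA change passed the test. In H137Y all 53 points lie where the RNA change is the larger one, and their footprint changes run from −1.09 to 1.33.

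Rpl10 R98S, the point mutant of a large-subunit protein, had RNA sums above all WT clones in every class. The RNA sum over all members was 149, 150 and 133 CPM (1.65 times WT), and the H4 sum was 18.1, 22.7 and 16.9 CPM (2.61 times). The other classes were at 1.55 times WT for H1, 1.43 for H2A, 1.65 for H2B and 1.46 for H3. In the test 6 of 55 members were higher and none lower, against 6.82% of all genes higher and 6.03% lower, a share near the background. Of the 22 members at the filter's level in WT, 4 passed. The 6 were 3 H4 and 3 H2B genes. The fit on only these 2 genotypes gave 13.

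H4c9 RNA was 12.5, 15.2 and 10.9 CPM in R98S, all above WT (1.65 on the log2 scale, SE 0.23, adjusted p = 0.000127 by edgeR), with footprints of 129, 57.6 and 78.4 CPM inside the WT range. H4c18 RNA was 1.46, 2.13 and 1.92 CPM (1.44, adjusted p = 0.00938), lost without WT clone 2. H2bc21 RNA was 25.3, 25.2 and 25.5 CPM (0.61, adjusted p = 0.00608), also above WT. H2bc6 and H2bc3 had log2 changes of 1.27 (adjusted p = 0.00883) and 1.72 (adjusted p = 0.0176), of which the first was lost without WT clone 1 and the second without WT clone 2, R98S clone A30 or clone A29.

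In R98S footprints 2 of 63 members were higher and none lower, where 0.814% of all genes were higher and 0.808% lower. H2ac6 (chr13:23683473-23683959) was at 1019, 836 and 1045 CPM against 547, 448 and 399 CPM in WT (1.06 on the log2 scale, adjusted p = 0.0167 by edgeR) and H3c4 (chr13:23575763-23576266) at 447, 413 and 554 CPM against 332, 253 and 312 CPM (0.66, adjusted p = 0.0293). Leaving out A30, A34 or WT clone 1 gave 0 members, and leaving out WT clone 2 or 3 gave 1. Both calls were lost without R98S clone A30, R98S clone A34, WT clone 1 or WT clone 2, and that of H3c4 also without WT clone 3. No member's ratio passed in R98S by edgeR, where 0.217% of all genes did. At an unadjusted p under 0.05, 12 members did, 11 of them lower. DESeq2 gave 3 members, and edgeR with the clone as a block gave 1.

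Rpl22+/- was the only mutant whose footprint sums lay above WT in all 3 clones for each class. The sums were 50530, 43470 and 50360 CPM (1.49 times WT), and the class means were above WT by 1.55 times for H1, 1.37 for H2A, 1.49 for H2B, 1.56 for H3 and 1.44 for H4. The RNA sums were 118, 124 and 110 CPM (1.34 times WT), above the WT clones. In the test across all genes 1 of 63 members passed, H1f2, where 0.142% of all genes were higher and 0.111% lower. At an unadjusted p under 0.05, 30 members passed, all higher, and DESeq2 gave 7. Leaving out Rpl22+/- clone 13 or 60, or WT clone 1 or 2, gave 0 members, leaving out WT clone 3 gave 2 and leaving out Rpl22+/- clone 16 gave 4. The members' median log2 change was 0.53, and that of all genes was −0.03.

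H1f2 footprints were 899, 782 and 846 CPM in Rpl22+/- against 501, 403 and 380 CPM in WT (0.98 on the log2 scale, SE 0.19, adjusted p = 0.025 by edgeR). The groups did not overlap, but the call was lost in 5 of 10 settings, among them without Rpl22+/- clone 13 or 60 and without WT clone 1 or 2. H1f3 footprints were 4352, 4162 and 4098 CPM, also above WT (0.60, adjusted p = 0.0634). H1f2 RNA was 47.6, 55.2 and 46.7 CPM, above WT (0.75, adjusted p = 0.133). No member passed in RNA, where 3.9% of all genes did and 9 members had an unadjusted p under 0.05 and DESeq2 gave 1. The ratio gave none by edgeR, against 0.00604% of all genes, with 7 members at an unadjusted p under 0.05.

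In Rpl22-/- the footprint sum was 31670 CPM (0.981 times WT). Of the libraries labelled Rpl22-/-, none gave a histone gene that passed: 0 in RNA (5.27% of all genes passed), footprints (0.105%) and the ratio (0.0121%), with 5, 7 and 4 members at an unadjusted p under 0.05 by edgeR and 0 by DESeq2 at each level. The difference between the 2 Rpl22 genotypes was not tested.

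In Rpl11+/- the footprint sum was 38490 CPM (1.19 times WT) and the H4 RNA sum 15.3, 8.71 and 14.3 CPM (1.73 times). In the test 2 of 55 members, H4c9 and H3c11, had higher RNA, against 5.73% of all genes higher and 6.05% lower; of the 22 at the filter's level in WT, H4c9 alone passed. H4c9 RNA was 8.59, 4.55 and 8.39 CPM (log2 change 0.81, adjusted p = 0.0267, edgeR), above WT, and the call was lost in 6 of 10 settings, those without clone 406 or 22 or any 1 WT clone among them. H3c11 had a log2 change of 1.39 (adjusted p = 0.02), lost in 5 of 10, without clone 406, WT clone 2 or WT clone 3 among them. Leaving out clone 406 gave 0 members, leaving out clone 22 or any 1 WT clone gave 1, and leaving out clone 414 gave 4. No footprint or ratio call was made by edgeR, against 0.074% and 0% of all genes, with 10 and 6 members at an unadjusted p under 0.05 and 4 footprint calls by DESeq2.

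In Rpl5+/- the sums were 94.1 RNA CPM (1.08 times WT) and 33540 footprint CPM, and the H4 RNA sum was 10.15, 9.35 and 13.3 CPM (1.48 times), above WT. No member passed by edgeR in RNA (1.04% of all genes), footprints (0.0123%) or the ratio (0%), where 7, 3 and 6 members had an unadjusted p under 0.05. DESeq2 gave 1 member in footprints.

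Rps15 P131S and Rps15 H137Y are substitutions in the same small-subunit protein, and they were also compared directly. In RNA, 3 of 55 members were lower in P131S than in H137Y and none higher, against 12.6% of all genes in each direction, and 2 of the 22 at the filter's level in WT, H2bc21 and H1f3. H2bc21 differed most (log2 difference −1.64, SE 0.14, adjusted p = 9.97e-08, edgeR) and passed in all 10 alternative settings. H1f3 differed by −1.05 (adjusted p = 0.011), lost without P131S clone 20 or H137Y clone 16, and H2bc11 by −1.29 (adjusted p = 0.0299), lost in 7 of 10 settings. Leaving out P131S clone 20 or H137Y clone 16 gave 1 member, and leaving out H137Y clone 6 gave 6.

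In footprints 6 of 63 members were higher in P131S than in H137Y and 1 lower, against 2.23% and 1.94% of all genes. They were H4c14, H4c6, H4c2, H2ac11, H2ac4 and H2ac7, and the lower one was H2bc3. H4c14 (chr3:96262934-96263317) footprints were 246, 366 and 462 CPM in P131S and 199, 159 and 97.8 CPM in H137Y (1.24, SE 0.26, adjusted p = 0.00861, edgeR), and H4c6 396, 427 and 412 CPM against 260, 264 and 197 CPM (0.78, SE 0.18, adjusted p = 0.0159). The clones did not overlap in either gene. This count rested on single libraries, with 1 member without P131S clone 20 or H137Y clone 2, 2 without H137Y clone 6, 3 without P131S clone 63 and 11 without P131S clone 24, and the fit on only these 2 genotypes gave 0.

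The ratio was higher in P131S for 2 members, H1f3 (1.23, adjusted p = 0.0218, edgeR) and H2ac11 (1.81, adjusted p = 0.0286), where 0.453% of all genes were higher and 0.229% lower. Without P131S clone 20 or 63, or H137Y clone 2, it was 0, without H137Y clone 6 it was 1 and without H137Y clone 16 it was 4. With the clone as a block, 5 members passed, 4 higher and 1 lower; H2ac11 passed there and H1f3 did not (adjusted p = 0.0605, edgeR). Each of these 2 calls was lost in 6 of 11 alternative settings. H2ac11 footprints were 136.5, 76.5 and 62.4 CPM in H137Y, overlapping WT, against 173, 223 and 302 CPM in P131S.

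**Figure D4:**
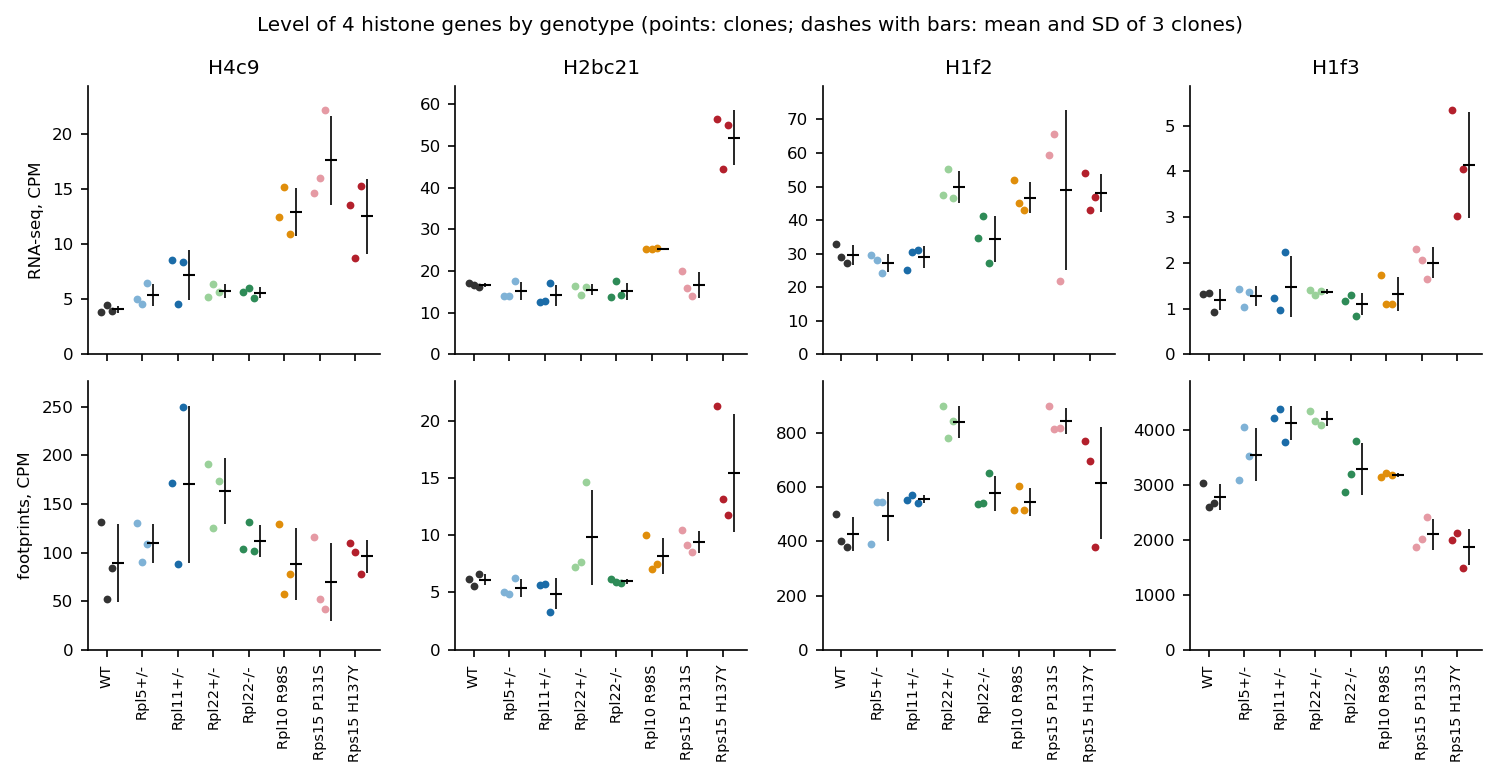
RNA (upper row) and footprint (lower row) CPM of H4c9, H2bc21, H1f2 and H1f3 in the 8 genotypes, with points for the 3 clones and a dash with a bar for mean ± SD. H4c9 RNA is high in Rpl10 R98S and both Rps15 mutants without a shift of its footprints, H2bc21 RNA stands apart in Rps15 H137Y, and H1f3 footprints of both Rps15 mutants lie below WT.

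Genes of S phase, set beside the histones because histone messages are made there, changed by a smaller median. In P131S 11 of 20 had higher RNA and none lower by edgeR, against 23.7% and 23.4% of all genes, with a median log2 change of 0.26; they include Ccne1, a cyclin of S phase entry (0.93), Ung, which removes uracil from DNA (0.72), and Pcna, the replication clamp (0.42). In H137Y 4 were higher and 3 lower, near the 21% and 20% of all genes, with a median of 0.09. Tk1 and Rrm2, enzymes of nucleotide supply, fell by 0.50 and 0.43, and Ccna2, a cyclin of S phase, fell by 0.31 on the log2 scale. The summed S phase RNA was 2662 to 2928 CPM in WT, 2960 to 3580 CPM in P131S, 2846 to 2919 CPM in H137Y and 2987 to 3076 CPM in Rpl22+/-. Its footprints were 5000 to 5554 CPM in WT and 6034 to 7739 CPM in P131S. In these bulk lysates more cells in S phase and more histone message per cell cannot be told apart, and the part of S phase in the histone values was not tested.

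Of 19 genes that transcribe, process or degrade histone messages, 6 had higher and 7 lower RNA in P131S, and 5 and 8 in H137Y, against 23.7% and 23.4% of all genes in P131S and 21% and 20% in H137Y. Eri1, the exonuclease that trims the histone stem-loop, fell by 0.85 in P131S and 0.48 in H137Y, and Lsm11, a subunit of the U7 particle that directs histone 3′ end cleavage, fell by 0.68 in H137Y on the log2 scale. Tut4, a uridylyl transferase, fell by 0.54 in P131S. Srrt, which binds the cap-binding complex, rose by 0.66 and 0.69, and Upf1, a helicase of RNA decay, rose by 0.43 in H137Y. The stem-loop binding protein Slbp did not pass in either.

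Of 13 histone chaperones, 9 had higher RNA and 1 lower in P131S, against 23.7% and 23.4% of all genes. In H137Y 3 were higher and 1 lower, against 21% and 20% of all genes, the higher share near that background. Hira, which deposits H3.3, rose by 0.49 and Nasp, which holds free H3 and H4, by 0.42 in P131S. Hat1, the acetyltransferase of new H4, fell by 0.21 in P131S and 0.43 in H137Y. Of the 9 replication-independent histones tested, of 11 listed, 6 rose in P131S and 3 in H137Y, and none fell, where 23.7% and 21% of all genes rose. They include H2aj (0.81 and 1.08), H2az1 (0.59 in P131S) and H3f3a (0.52 in P131S).

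Other RNAs without a poly(A) tail, added after the data were seen, were read beside the histones. Their values can reflect how much such RNA the libraries kept or its level in the cells, which cannot be told apart here. The 2 copies of 7SL RNA (Rn7s1 and Rn7s2) summed to 17.4, 14.6 and 15.4 RNA CPM in WT, 26.8, 15.5 and 28.7 CPM in P131S, 19.8, 21.5 and 22.9 CPM in H137Y and 16.4 to 23.8 CPM in R98S. On average they were highest in Rpl11+/- (29.6 to 31.2 CPM) and Rpl5+/- (23.9 to 27.3 CPM). There the histone RNA sum over all 66 genes was 1.12 and 1.08 times WT and overlapped WT. Without H1f2 and H2bc21 the sum was 1.33 and 1.26 times WT and above every WT clone, against 2.54 times in P131S and 2.86 times in H137Y. Rn7s1 alone passed as lower in P131S, at 0 CPM in each clone against 5.29 to 15.4 CPM in WT. Rn7s2 was at 15.5 to 28.7 CPM in P131S against 0 to 12.1 CPM in WT. Rn7sk was at 0.926 to 1.32 CPM in WT, 1.15 to 1.304 CPM in P131S and 2.54 to 3.42 CPM in H137Y (log2 change 1.49, adjusted p = 0.00141, edgeR). Rmrp was at 0.137 to 0.264 CPM in WT, 0.0334 to 0.607 CPM in P131S and 0.193 to 0.355 CPM in H137Y. The part of poly(A) selection in the histone RNA values was not tested.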

How the data were processed

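Poly(A)-selected RNA and 28 to 30 nt ribosome footprints were measured in 24 clones of 8 genotypes. The authors deposited estimated counts per gene, with decimals; per the submitters' processing notes STAR 2.6.1d, Salmon 1.4.0, DESeq2 1.30 and GRCm38 were used, in roles not given there. The feature counted and any strand setting are not given in the sources used here. The estimated counts were rounded to whole numbers. All genes were fitted with edgeR 4.0.16 in R 4.3.3: filterByExpr (minimum count 10, minimum total 15), TMM scaling, a robust quasi-likelihood F test with 1 mean per genotype, and Benjamini-Hochberg adjustment over all genes within a comparison (threshold 0.05). The ratio was the interaction of assay and genotype over all 48 libraries. Samples were grouped by the labelled genotype. Alternatives were DESeq2 1.42.0, other size factors, no filter, only the genotypes compared, each clone left out, and the clone as a block. Statistics were tested on simulated data.

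The clone pairs the libraries, since the labels say that each lysate was divided. Over 12074 genes, deviations from the group means correlated at 0.088 to 0.398 between RNA and footprints of 1 clone (24 pairs) and at −0.283 to −0.021 between different clones of a genotype (48 pairs). Such deviations cancel within a group, so the negative values follow from the positive ones and are no separate evidence of pairing. The main fit of the ratio did not use the pairing, and the fit with the clone as a block did.

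The members and lists were chosen with earlier results of these data known. Genes named in the text were, per class, the 3 with the highest WT mean in either assay; the 5 members with the lowest adjusted p per comparison with WT and level (3 for P131S against H137Y); and up to 3 called genes per other list. Some further called members were named after their values were seen. Promoters and gene positions are from RefSeq (GRCm38.p6). At 13029073 to 72044439 counts per library, counting error is large for members with few RNA counts. Footprints and RNA were scaled within each assay, so a ratio is relative to the other genes of the libraries.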

Additional observations from a re-analysis of the deposited data

Results flagged for a closer look

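Each result here is a member that differed between Rps15 P131S and Rps15 H137Y in a direct test of the 2 genotypes (edgeR, adjusted over all genes), given as the log2 difference of P131S from H137Y. In RNA H2bc21 differed by −1.64 (adjusted p = 9.97e-08), H1f3 by −1.05 (0.011) and H2bc11 by −1.29 (0.0299), with means of 16.6 against 51.9, 2.00 against 4.13 and 0.560 against 1.4 CPM. In footprints the differences were 1.24 for H4c14 (adjusted p = 0.00861), 0.78 for H4c6 (0.0159), 1.34 for H2ac11 (0.0169), 1.06 for H4c2 (0.0194), 1.62 for H2ac4 (0.0248), 1.32 for H2ac7 (0.0254) and −0.52 for H2bc3 (0.0449). In the ratio they were 1.23 for H1f3 (adjusted p = 0.0218) and 1.81 for H2ac11 (0.0286). The H1f3 ratio call was lost with the clone as a replicate block (adjusted p = 0.0605, edgeR), and both ratio calls were lost in 6 of 11 alternative settings. Groups of 3 clones were not searched for outlying samples.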

How the results depend on the processing

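Counts are of histone genes that passed at an adjusted p under 0.05. With only the genotypes compared in the fit, RNA gave 13 in R98S, 0 in Rpl11+/-, 2 in Rpl22+/-, 1 in Rpl22-/-, 22 in P131S and 1 in P131S against H137Y; footprints gave 4 in R98S, 0 in Rpl22+/- and 0 in P131S against H137Y; the ratio gave 1 in R98S and 0 in P131S against H137Y. DESeq2 gave in RNA 4 in Rpl11+/- and 1 in Rpl22+/-, in footprints 4 in R98S, 4 in Rpl11+/-, 7 in Rpl22+/- and 1 in Rpl5+/-, and in the ratio 3 in R98S, 27 in H137Y, 17 in P131S and 6 in P131S against H137Y. Without a count filter the numbers were 1 for Rpl11+/- RNA, 1 for Rpl11+/- and 3 for Rpl22+/- footprints, 3 for P131S against H137Y footprints, and 7 for P131S and 1 for P131S against H137Y in the ratio. RLE size factors gave 2 in Rpl22+/- footprints. The cause of these shifts was not tested. With the clone as a replicate block the ratio gave 10 in P131S, 20 in H137Y, 1 in R98S and 5 in P131S against H137Y, and 0 elsewhere. The median over members in place of the summed ratio in WT was 9.14 on the log2 scale.

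Leaving out 1 clone at a time gave in RNA 24 to 31 in P131S, 35 to 42 in H137Y, 0 to 4 in Rpl11+/-, 4 to 6 in R98S, 1 to 6 in P131S against H137Y and 0 to 1 in Rpl22+/-. In footprints it gave 8 to 16 in P131S, 3 to 4 in H137Y, 0 to 2 in R98S, 0 to 4 in Rpl22+/- and 1 to 11 in P131S against H137Y. In the ratio it gave 6 to 10 in P131S, 9 to 16 in H137Y and 0 to 4 in P131S against H137Y, and the summed ratio in WT was 8.43 to 8.65. All other counts stayed 0. Without WT clone 2, 1 member passed in Rpl22+/- RNA. Of 48 calls of single named genes, 27 were kept in every setting; over 491 settings 412 kept the call, 79 lost it and 0 reversed. Depth limits single members in RNA, where H1f1 had 27 counts over the 3 WT libraries. Another scaling moved the median of all genes by at most 0.054 on the log2 scale.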
